A study of Mus musculus with 6 samples.

Results

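The survival genes of the BCL2 family are the genes whose proteins keep a cell from undergoing apoptosis at its mitochondria. They were taken by symbol from the raw count table as Bcl2, Bcl2l1 (which encodes BCL-XL), Mcl1, Bcl2l2 (which encodes BCL-W) and 3 near-identical copies of the A1 gene, Bcl2a1a, Bcl2a1b and Bcl2a1d. All 7 were among the 37620 genes of the table, and 6 had enough counts to be tested. Their transcripts were compared between mouse B cells that carried pMIR, a retroviral vector with no insert, and B cells that carried pMIR-Sox2, the same vector with the transcription factor Sox2.

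Each group held 3 libraries. Both groups were splenic B cells of C57Bl/6 mice aged 4 months, and the labels name no other allele. Both were cultured with anti-CD40 (1 µg/ml) and IL-4 (12.5 µg/ml), given virus at 24 and at 48 h, and purified by a sort on vector mCherry at 96 h. The controls thus shared the stimuli, the infection and the sort with the Sox2 cells. Sox2 came from a virus and not from the cell's own locus, and the labels do not say whether replicates were separate animals.

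Apoptosis through the mitochondria is set by binding between members of the BCL2 family. The survival proteins hold the effectors BAX and BAK in check, BH3-only proteins such as BIM and BMF occupy the survival proteins, and free effectors open the outer mitochondrial membrane so that caspases become active. Resting mature B cells are known to depend on BCL2 and MCL1, while CD40 and BAFF receptor signals through NF-kB are known to raise BCL-XL and A1.

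The 3 A1 copies lie on chromosome 9 and differ so little that short reads often fit more than 1 of them. Their first 75 coding bases (GENCODE M21 transcripts, GRCm38, coding strand, 5′ to 3′) are shown because they hold 6 of the 12 coding positions at which the copies differ. Capitals mark those positions.
Bcl2a1a: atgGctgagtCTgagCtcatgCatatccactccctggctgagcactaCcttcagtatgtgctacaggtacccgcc
Bcl2a1b: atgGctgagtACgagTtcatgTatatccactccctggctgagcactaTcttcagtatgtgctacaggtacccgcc
Bcl2a1d: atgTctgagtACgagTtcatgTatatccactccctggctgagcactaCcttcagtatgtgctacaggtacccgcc
Over all 516 coding bases, Bcl2a1b and Bcl2a1d differed at 6 (98.8% identity), Bcl2a1a and Bcl2a1d at 7 (98.6%) and Bcl2a1a and Bcl2a1b at 11 (97.9%). Of the windows of 50 bases in each transcript, 31.0% of those of Bcl2a1a, 42.4% of those of Bcl2a1b and 20.5% of those of Bcl2a1d were found in no gene of another locus. With windows of 100 bases the shares were 56.5%, 68.9% and 45.3%. For Bcl2, Bcl2l1, Mcl1 and Bcl2l2 they were 99.7 to 100% at 50 bases. The table keeps alignments that were not unique apart from the genes, so single A1 copies are uncertain, and their sum is given beside them. The read length was not given in the sources used here.

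Gene counts ran from 21421769 to 27692437 per pMIR library and from 17153805 to 20770447 per pMIR-Sox2 library. Levels are given as CPM, a library's counts scaled to a common total after TMM correction, which is relative and carries no information on the RNA content of a cell. The transferred gene itself, Sox2, averaged 0.949 CPM (SD 0.744, n = 3) in the controls and 800 CPM (SD 183, n = 3) in the Sox2 cells. Of the B cell markers, Cd79a was at 547 to 756 CPM in the controls and 674 to 889 CPM in the Sox2 cells, and Pax5 at 169 to 197 and 282 to 424 CPM. Cd79b was at 686 to 903 and 269 to 393 CPM, Ms4a1 at 597 to 765 and 142 to 330 CPM, and Cd22 at 483 to 875 and 192 to 362 CPM. Markers of T cells (7 of 7), neutrophils (6 of 6) and erythroid cells (4 of 4) were under 1 CPM in every library, among them S100a8, S100a9, Trbc1 and Hbb-b1 at 0. Of 6 monocyte markers 4 were under 1 CPM, while the list summed to 18.7 to 21.9 CPM in pMIR and 29.9 to 36.5 CPM in pMIR-Sox2, mostly from Emr1. NK markers summed to 0.258 to 0.572 and 3.48 to 8.11 CPM, mostly from Klrd1 with Ncr1 at 0. Stromal markers summed to 20.7 to 32.5 and 49.4 to 63.1 CPM, mostly from Pecam1, and plasmacytoid dendritic cell markers to 35.9 to 47.7 and 41.6 to 56.4 CPM, mostly from Bst2. The part of these cells in the results was not tested.

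In B cells given Sox2, 4 of the 6 tested survival genes fell, 1 rose and 1 did not pass the test. Bcl2, Mcl1, Bcl2a1b and Bcl2a1d fell, Bcl2l2 rose, and Bcl2l1 was not called. Bcl2a1b and Bcl2a1d are near-identical copies with r = 0.989 across the libraries, so they are not separate evidence. The count and the median below include both. Of all 12898 genes tested beside Sox2, 20.0% were lower and 23.2% were higher past the same threshold (43.2% in either direction). Bcl2, Mcl1, Bcl2a1b and Bcl2a1d had every Sox2 library below every control, as had 27.6% of all genes, and Bcl2l2 had every one above, as had 28.9% (56.5% in either direction). The median log2 fold change was −1.0 over the 6 members and −0.02 over all genes tested. Calls are those of edgeR's quasi-likelihood test at an adjusted p (Benjamini-Hochberg over all genes tested) under 0.05. In bulk RNA, fewer cells with a transcript and less of it per cell cannot be told apart.

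**Figure D1:**
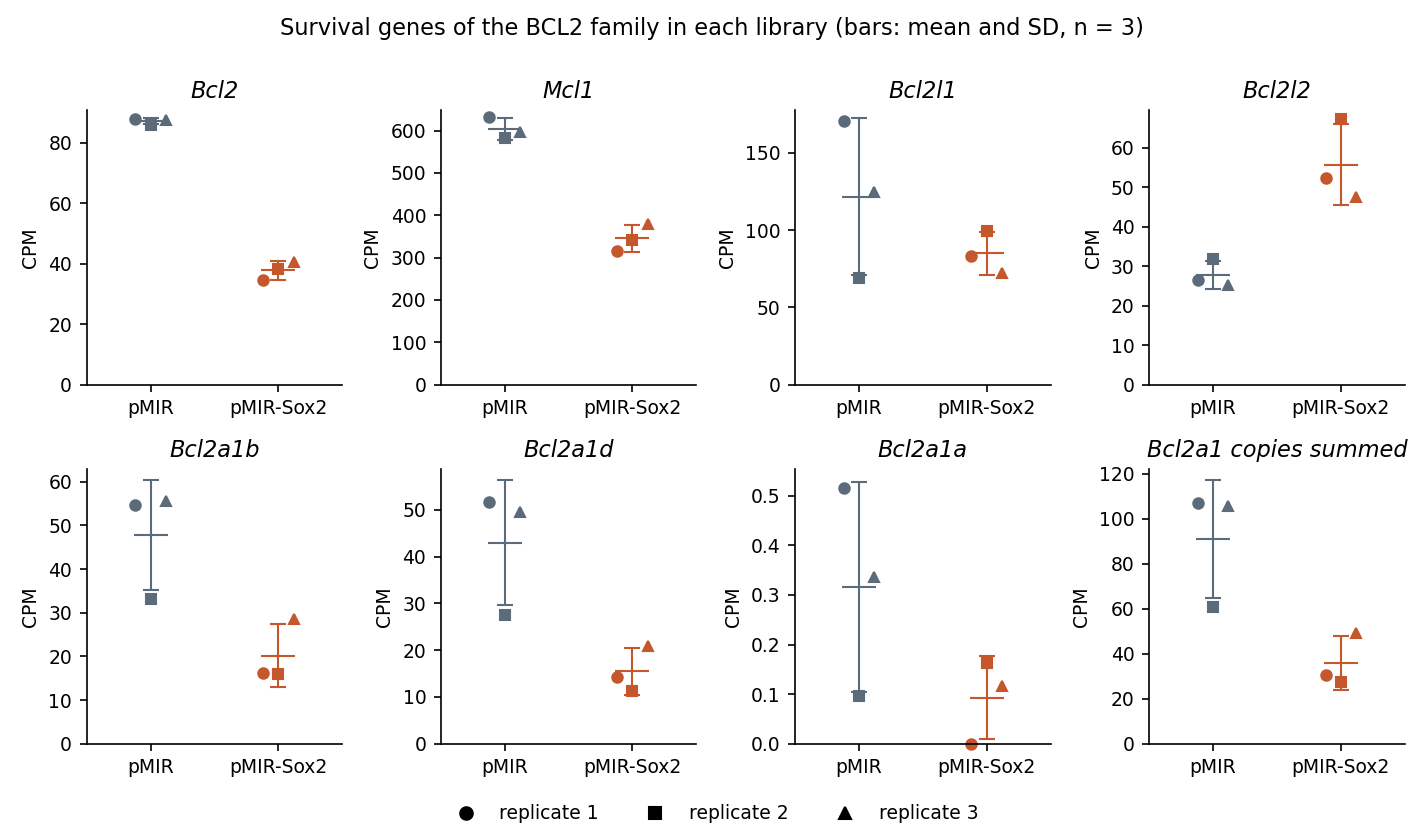
CPM of each survival gene and of the summed Bcl2a1 copies (y axes, linear from 0) in the pMIR and pMIR-Sox2 libraries (x axes), with a symbol for each replicate number and bars for the mean and SD (n = 3). The groups do not overlap for Bcl2, Mcl1, Bcl2l2, Bcl2a1b, Bcl2a1d and the sum, and they overlap for Bcl2l1 and Bcl2a1a.

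Bcl2 encodes the founding member of the family, which sits on the mitochondrial and endoplasmic reticulum membranes. Its level was 87.9, 86.1 and 87.5 CPM in pMIR replicates 1 to 3 and 34.5, 38.3 and 40.7 CPM in pMIR-Sox2 replicates 1 to 3. The control libraries lay close together (SD 0.969 CPM), and every Sox2 library was under 0.5 of any of them. Bcl2 thus fell 2.30-fold, from 87.2 ± 0.969 to 37.8 ± 3.15 CPM (SD, n = 3 each). The log2 fold change was −1.20 ± 0.10 (SE, 95% interval −1.43 to −0.98, edgeR adjusted p = 4.48e-05). Of all genes tested, 3.53% had a log2 fold change as low or lower. An antisense gene, D630008O14Rik, shares exon bases with Bcl2 in the reference and had 3 to 10 counts per library, against 703 to 2384 for Bcl2. The strand setting of the counting was not given, so reads of the 2 genes cannot be told apart.

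Mcl1 encodes a short-lived survival protein that is needed in most stages of the B lineage. It was read at 632, 582 and 596 CPM in pMIR and at 315, 343 and 379 CPM in pMIR-Sox2. The groups did not overlap, and the spread within each was small beside the distance between them. Mcl1 fell 1.75-fold, from 603 ± 25.7 to 346 ± 32.0 CPM (SD, n = 3 each). The log2 fold change was −0.80 ± 0.11 (SE, 95% interval −1.05 to −0.56, edgeR adjusted p = 0.000526), and 8.47% of all genes tested were as low or lower.

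The A1 copies encode a small survival protein that is induced by NF-kB and made in lymphocytes and myeloid cells. Bcl2a1b was read at 54.6, 33.2 and 55.6 CPM in pMIR and at 16.2, 15.9 and 28.5 CPM in pMIR-Sox2. Bcl2a1d was at 51.8, 27.6 and 49.6 CPM in pMIR and at 14.3, 11.2 and 20.9 CPM in pMIR-Sox2. In both copies pMIR replicate 2 was the lowest control and pMIR-Sox2 replicate 3 the highest Sox2 library, and the groups did not overlap. Bcl2a1b fell by 1.25 ± 0.26 on the log2 scale (SE, edgeR adjusted p = 0.00530), and Bcl2a1d fell by 1.48 ± 0.28 (adjusted p = 0.00295).

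Bcl2a1a had 14, 2 and 7 counts in pMIR and 0, 3 and 2 in pMIR-Sox2, and it was left out of the test by the filter on low counts. The 0 counts of pMIR-Sox2 replicate 1 allow up to 0.138 CPM there (3 counts, counting error only). A further copy, Bcl2a1c, had at most 1 count in any library. Summed over all 4 copies, A1 was read at 107, 60.9 and 106 CPM in pMIR and at 30.5, 27.3 and 49.4 CPM in pMIR-Sox2. The sum fell from 91.1 ± 26.2 to 35.7 ± 12 CPM (SD, n = 3 each), and no Sox2 library reached the lowest control. Its log2 fold change was −1.35 ± 0.27 (SE, 95% interval −1.96 to −0.75, edgeR adjusted p = 0.00375). With no filter on low counts the adjusted p was 0.0650 for the sum and 0.0662 for Bcl2a1b, and 0.0494 for Bcl2a1d.

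Counts of Bcl2a1b stood in a ratio of 1.05 to 1.20 to those of Bcl2a1d in pMIR and of 1.13 to 1.42 in pMIR-Sox2. The ranges overlapped, and within each of the 3 pairs the ratio was higher in the Sox2 library. The ratio was not tested.

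Bcl2l2 was the 1 member that rose. BCL-W, its product, is best known for survival of germ cells and neurons, and it is less studied in B cells. Its transcript was at 26.5, 31.9 and 25.2 CPM in pMIR and at 52.3, 67.4 and 47.6 CPM in pMIR-Sox2. Every Sox2 library was above every control. Bcl2l2 rose 2.00-fold, from 27.9 ± 3.57 to 55.8 ± 10.3 CPM (SD, n = 3 each), with a log2 fold change of 1.00 ± 0.15 (SE, 95% interval 0.66 to 1.34, edgeR adjusted p = 0.000896). Of all genes tested, 10.8% were as high or higher. A read-through gene, Gm20521, shares exon bases with Bcl2l2 and had 4 to 10 counts per library, against 525 to 1246 for Bcl2l2.

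Bcl2l1 encodes BCL-XL, the survival protein that is strongly induced when B cells are activated. Of the 6 tested members it varied most among the controls, at 171, 69.3 and 124 CPM in pMIR, and was at 83.1, 99.7 and 72.0 CPM in pMIR-Sox2. The groups overlapped, as pMIR replicate 2 lay below all 3 Sox2 libraries and the other controls lay above them. The means were 122 ± 50.9 and 84.9 ± 13.9 CPM (SD, n = 3 each). The log2 fold change was −0.52 ± 0.28 (SE, 95% interval −1.15 to 0.11, edgeR adjusted p = 0.161). Without pMIR replicate 2 it was −0.80 (adjusted p = 0.00663), and without pMIR replicate 1 it was −0.20 (adjusted p = 0.563), so the value rests on single control libraries. A p that misses the threshold does not show that BCL-XL transcripts were alike in both groups.

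Control and Sox2 libraries of the same replicate number carry a common number (8, 9 or 12) in their descriptions, so the change was also read within each pair. For Bcl2 the log2 ratio of Sox2 to control was −1.35, −1.17 and −1.10 in pairs 1 to 3. Mcl1 gave −1.0, −0.76 and −0.65, the A1 sum −1.81, −1.16 and −1.10, and Bcl2l2 0.98, 1.08 and 0.92. All 3 pairs had the same sign for these genes, and the falls were deepest in pair 1. Bcl2l1 gave −1.04, 0.52 and −0.79, with the opposite sign in pair 2.

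**Figure D2:**
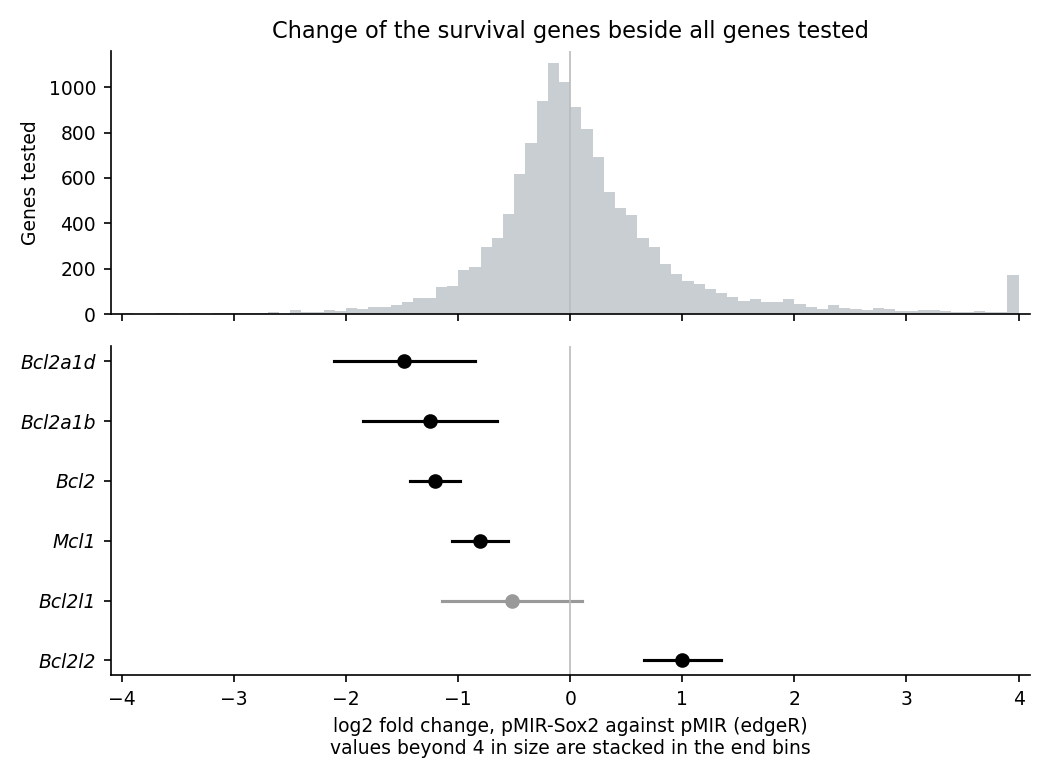
Upper panel: number of genes tested (y axis) by log2 fold change of pMIR-Sox2 against pMIR (x axis), Sox2 left out. Lower panel: the 6 tested survival genes, with points for the log2 fold change and lines for the 95% interval of the edgeR fit, in black where the adjusted p was under 0.05 and grey for Bcl2l1. The points run from −1.48 for Bcl2a1d to 1.00 for Bcl2l2, and the line of Bcl2l1 crosses 0.

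Ratios between genes within a library do not depend on the scaling between libraries. The log2 ratio of Bcl2 to Mcl1 counts was −2.85, −2.76 and −2.77 in pMIR and −3.19, −3.16 and −3.22 in pMIR-Sox2. Bcl2 was thus lower relative to Mcl1 in each Sox2 library, by 0.40 on the log2 scale. A two-sided exact permutation test gave p = 0.1, the smallest that 3 libraries against 3 allow, and 0.24 after adjustment over the 6 ratios tested. Bcl2l2 stood at −4.57, −4.19 and −4.56 relative to Mcl1 in pMIR and at −2.59, −2.35 and −2.99 in pMIR-Sox2, a difference of 1.80 (exact p = 0.1, adjusted 0.24). The A1 sum relative to Mcl1 differed by −0.55 (exact p = 0.2, adjusted 0.24), with overlapping libraries and a lower value for the Sox2 library in each of the 3 pairs. Bcl2l1 relative to Mcl1 differed by 0.37 (exact p = 0.6), also with overlap.

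Levels of different genes were compared as CPM per kb of exon. In pMIR, Mcl1 was highest at 176 ± 7.52 CPM per kb (SD, n = 3), followed by Bcl2a1b at 58.5 ± 15.5, Bcl2a1d at 49.8 ± 15.5, Bcl2l1 at 26.5 ± 11.1, Bcl2 at 9.52 ± 0.106 and Bcl2l2 at 6.25 ± 0.799. Bcl2a1b overlapped with Bcl2a1d and Bcl2a1d with Bcl2l1 across these libraries, and the other neighbours in the order did not overlap. In pMIR-Sox2, Mcl1 was at 101 ± 9.36 CPM per kb, Bcl2a1b at 24.7 ± 8.78, Bcl2l1 at 18.5 ± 3.03, Bcl2a1d at 17.9 ± 5.72, Bcl2l2 at 12.5 ± 2.32 and Bcl2 at 4.13 ± 0.344. Here Bcl2a1b, Bcl2l1, Bcl2a1d and Bcl2l2 each overlapped with the next in the order, while Mcl1 lay above and Bcl2 below all of them in every library. Bcl2 lay above Bcl2l2 in all 3 control libraries (9.40 to 9.60 against 5.65 to 7.16 CPM per kb) and below it in all 3 Sox2 libraries (3.77 to 4.45 against 10.7 to 15.1). The A1 levels hold uniquely placed reads of a partly shared sequence, so they are low estimates. Bcl2 and Bcl2l2 share exon bases with overlapping genes. How such reads were counted was not examined, so their levels per kb may be low as well. Per length of the longest transcript Bcl2l1 was at 47.4 CPM per kb in pMIR and 33.1 in pMIR-Sox2, which puts it above Bcl2a1b in the latter.

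The summed level of the 7 members per length, a description added after the values were seen, was 365, 275 and 343 CPM per kb in pMIR and 162, 174 and 201 in pMIR-Sox2. Mcl1 made up 50.6 to 62.0% of it in the controls and 55.2 to 57.6% in the Sox2 cells. The A1 copies made up 26.5 to 36.8% and 18.8 to 29.4%, Bcl2l1 5.50 to 10.2% and 7.82 to 12.5%, Bcl2 2.63 to 3.42% and 2.21 to 2.40%, and Bcl2l2 1.63 to 2.61% and 5.32 to 8.69%. Bcl2l2 is the gene whose share was higher in every Sox2 library than in any control, and Bcl2 the gene whose share was lower in every one.

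**Figure D3:**
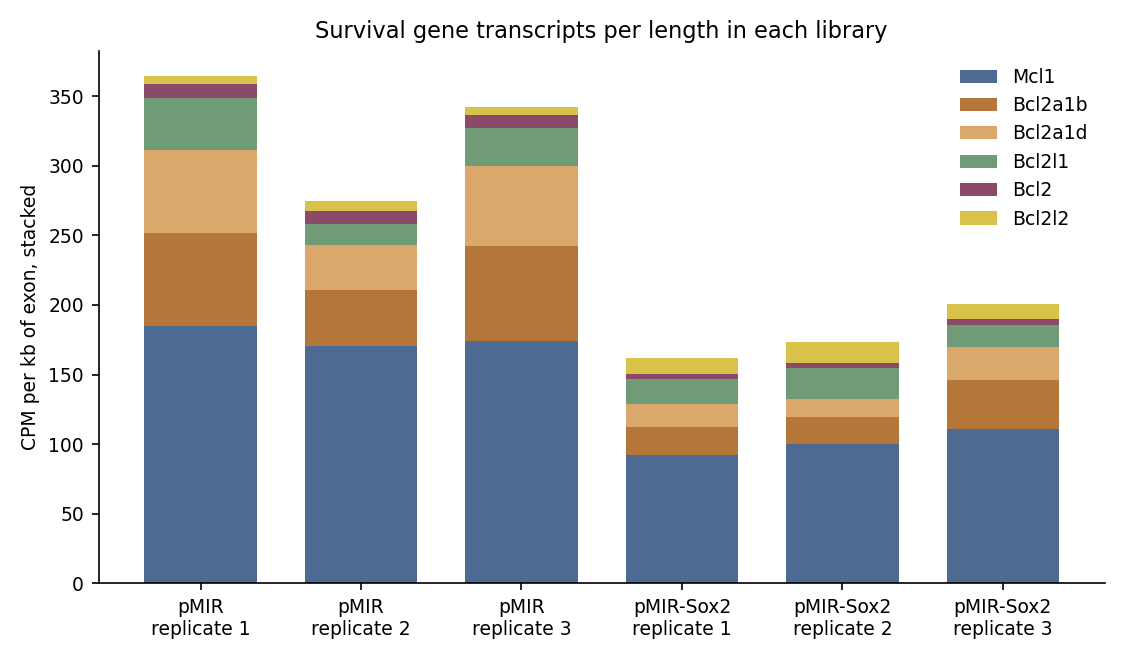
CPM per kb of exon (y axis, linear from 0) of the 6 tested survival genes, stacked, in each of the 6 libraries (x axis). Mcl1 and the A1 copies fill most of each bar, the Sox2 bars end at 162 to 201 and the control bars at 275 to 365, and the Bcl2l2 segment is thicker in the Sox2 bars.

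Of 11 BH3-only and effector genes, which oppose the survival genes, 8 were tested, of which 2 rose, 2 fell and 4 did not pass (median log2 fold change −0.08, against −0.02 over all genes tested). These shares are close to the 23.2% higher and 20.0% lower of all genes tested, so the counts set the list apart in neither direction. Bcl2l11 encodes BIM, which binds every survival protein of the family. It fell from 136, 160 and 136 CPM in pMIR to 71.6, 74.4 and 72.4 CPM in pMIR-Sox2 (log2 fold change −0.98 ± 0.10, SE, edgeR adjusted p = 0.000125). Bid, whose product links death receptors to mitochondria once cleaved, fell from 68.0, 61.2 and 64.8 to 28.6, 23.9 and 37.0 CPM (−1.12 ± 0.15, adjusted p = 0.000532).

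Bmf, a BH3-only gene whose protein is released from the cytoskeleton under stress, rose from 6.31, 6.43 and 6.77 CPM in pMIR to 37.4, 57.0 and 26.1 CPM in pMIR-Sox2. Its log2 fold change was 2.63 ± 0.26 (SE, edgeR adjusted p = 0.000123), the largest in size among the 8. Pmaip1 encodes NOXA, which binds MCL1 and A1, and is named here after its values were seen as the other gene that rose. It went from 120, 87.5 and 106 to 146, 156 and 162 CPM (0.56 ± 0.13, adjusted p = 0.00641). No library overlapped between the groups for any of these 4 genes, which holds for 56.5% of all genes tested. The effectors did not pass, with Bax at 159 ± 15.1 and 131 ± 4.54 CPM (SD, n = 3, edgeR adjusted p = 0.0538, no overlap of libraries, and 0.0237 with the replicate block, which calls it lower) and Bak1 at 125 ± 15.6 and 122 ± 7.77 CPM (adjusted p = 0.803). The third effector, Bok, and the BH3-only genes Bik and Hrk were under the filter.

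**Figure D4:**
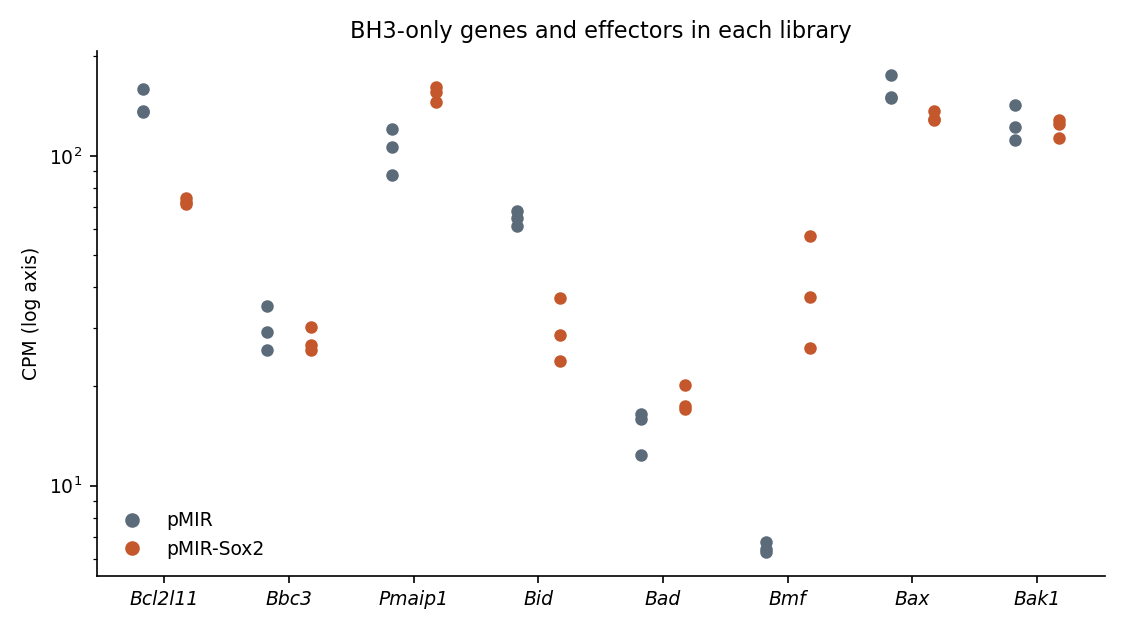
CPM (y axis, log scale) of the 8 tested BH3-only genes and effectors (x axis) in each library, grey for pMIR and orange for pMIR-Sox2, 1 point per library. Bcl2l11 and Bid lie lower in all 3 Sox2 libraries, Bmf and Pmaip1 lie higher, and the other 4 did not pass the test.

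As a second description added after the values were seen, the levels per length of the 8 BH3-only genes summed to 89.1 to 102 CPM per kb in pMIR and 96.7 to 105 in pMIR-Sox2. Set against the sum of the survival genes, this was 27.8, 32.4 and 28.4% in pMIR and 59.6, 60.1 and 52.1% in pMIR-Sox2. The BH3-only sums overlapped between the groups, and the survival sums did not. Pmaip1 was the largest part of the BH3-only sum in every library, at 32.0 to 44.0 CPM per kb in pMIR and 53.4 to 59.2 in pMIR-Sox2. Bcl2l11 was at 16.9 to 19.9 and 8.91 to 9.27, Bid at 17.3 to 19.2 and 6.72 to 10.4, and Bmf at 1.20 to 1.29 and 4.97 to 10.8. The sum thus holds genes that rose and genes that fell. Bcl2l11 stood to Bcl2 as 1.76 to 2.12 in pMIR and as 2.03 to 2.37 in pMIR-Sox2 per length. The groups overlapped, with a higher value for the Sox2 library in each of the 3 pairs. To Mcl1 it stood as 0.0914 to 0.117 in pMIR and as 0.0813 to 0.0966 in pMIR-Sox2, also with overlap. That ratio was lower for the Sox2 library in pairs 2 and 3 and higher in pair 1. These are transcript levels and say nothing of protein.

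Among the other BCL2 homologues, 4 of 6 were tested, of which 1 rose and 3 did not pass. That share of rises is close to the 23.2% of all genes tested. Bcl2l14 rose from 0.825 ± 0.0204 to 2.56 ± 0.555 CPM (SD, n = 3, log2 fold change 1.63 ± 0.26, SE, edgeR adjusted p = 0.00123). Bcl2l10 had no count in any library, which allows up to 0.174 CPM in the shallowest (3 counts).

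Of 18 caspases, apoptosome genes and their inhibitors, 7 fell, 3 rose and 8 did not pass (median −0.10). Among all genes tested, 20.0% fell and 23.2% rose. With the replicate number as a block, 5 rose, while over all genes tested the rises went from 2990 to 3486. Htra2, a mitochondrial protease that counters IAP proteins, fell from 90.7 ± 10.5 to 55.7 ± 5.82 CPM (SD, n = 3, −0.70 ± 0.12, SE, edgeR adjusted p = 0.00186). Birc2, which encodes the inhibitor cIAP1, fell from 213 ± 16.6 to 149 ± 16.1 CPM (−0.51, adjusted p = 0.00616). Leaving out pMIR replicate 1 gave 2 falls, leaving out replicate 1 or 2 of the Sox2 cells gave 3, leaving out pMIR replicate 3 gave 4, and scaling by library totals only gave 4. Rises came to 1 on leaving out control replicate 2 or 3 or Sox2 replicate 1, and to 5 on leaving out Sox2 replicate 3 or with library totals only. Over all genes, leaving out 1 library gave 2362 to 3321 rises and 1783 to 2885 falls, against 2990 and 2577 with all libraries, and library totals only gave 3414 and 2059.

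MCL1 protein is turned over fast, and 6 of 8 genes that act on its turnover were tested. Of these 2 rose, 0 fell and 4 did not pass (median 0.30), and 4 rose with the replicate block. Without the block, 23.2% of all genes tested rose and 20.0% fell. With it, rises among all 12898 genes went from 2990 to 3486. The counts of these 6 genes were not tested against those of all genes. By edgeR 0 genes of this list were lower at an unadjusted p under 0.05, and 0 fell by DESeq2 or limma-voom. The list was not split by whether a gene promotes or restrains the loss of MCL1, so its counts and median give no direction of turnover. Gsk3b, a kinase whose phosphorylation marks MCL1 for degradation, rose from 76.2 ± 5.27 to 214 ± 50.8 CPM (SD, n = 3, 1.49 ± 0.17, SE, edgeR adjusted p = 0.000214). Fbxw7, a ubiquitin ligase subunit, rose from 240 ± 16.8 to 316 ± 34.0 CPM (0.39, adjusted p = 0.0212). Fbxw7 was not called without pMIR replicate 1 (adjusted p = 0.0853), pMIR replicate 3 (0.0940) or pMIR-Sox2 replicate 1 (0.0643). Leaving out each of those 3 libraries left 1 rise in the list, and leaving out pMIR-Sox2 replicate 3 gave 4.

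Receptors, kinases and transcription factors that act on B cell survival fell in 14 of 25 tested genes, rose in 2 and did not pass in 9. Over all genes tested, 20.0% fell and 23.2% rose. The median log2 fold change was −0.34, against −0.02 over all genes tested. Under the alternatives the falls ran from 11 to 15. The list was chosen with earlier results of these data known, so its counts are not an independent contrast with all genes. This list was not split by whether a gene promotes or restrains survival, so the counts give no direction of survival signalling. Tnfrsf13c encodes the BAFF receptor, which sustains mature B cells. Its level fell from 271, 279 and 302 CPM in pMIR to 66.6, 84.8 and 108 CPM in pMIR-Sox2 (log2 fold change −1.72, edgeR adjusted p = 9.27e-05). Pim2, a survival kinase, fell from 235, 194 and 180 to 54.4, 46.7 and 52.5 CPM (−1.99, adjusted p = 1.47e-05). Map3k14, the kinase NIK of the alternative NF-kB pathway, fell from 51.9, 55.5 and 51.2 to 22.0, 22.0 and 28.5 CPM (−1.13, adjusted p = 0.000179). The 2 rises, Stat3 (0.42) and Foxo3 (0.32), named after their values were seen, were both lost on leaving out replicate 1 or 2 of either group, and leaving out pMIR replicate 3 left 1 rise.

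Of 14 partners of BCL2 outside the caspase cascade, 3 rose, 2 fell and 9 did not pass (median −0.04). With 23.2% higher and 20.0% lower among all genes tested, these counts set the list apart in neither direction. The IP3 receptors release calcium from the endoplasmic reticulum, where BCL2 binds them. Itpr1 fell from 147, 132 and 120 CPM in pMIR to 67.6, 53.1 and 58.1 CPM in pMIR-Sox2 (−1.16, edgeR adjusted p = 0.000147), and Itpr2 rose from 79.2, 91.2 and 92.1 to 259, 217 and 205 CPM (1.38, adjusted p = 5.59e-05). Bnip2, which encodes a BCL2-interacting protein, rose from 77.5, 81.6 and 79.0 to 263, 301 and 219 CPM (1.72, adjusted p = 2.88e-05). The second fall, Bag1 (−0.30), named after its values were seen, was lost with library totals only, with no filter, and without pMIR replicate 1 or 3 or pMIR-Sox2 replicate 1 or 2, leaving 1 fall.

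Genes whose pattern was most like that of Bcl2 or Mcl1 were sought among 9411 protein-coding genes of at least 5 CPM, by Pearson's r of log2 CPM over the 6 libraries, which form 2 groups and share their depth and scaling. For Bcl2 these were Agpat3 (r = 0.999), Gimap6 (0.998) and Rhof (0.997). For Mcl1 they were Phf23 (r = 0.999), Mettl21d (0.999) and 6230427J02Rik (0.998). Values of r of at least 0.95 were reached by 594 genes with Bcl2 and 679 with Mcl1. Between Bcl2 and Mcl1 themselves r was 0.994, and between Bcl2 and Bcl2l2 it was −0.94.

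Promoter windows of RefSeq (GRCm38.p6, 250 bases before to 50 after a start site) were found for all 7 members, 9 windows in all. They were searched on both strands for the Sox core letters ACAATG and ACAAAG and for an NF-kB-like pattern of GGG, any 2 bases, T, any 2 bases and CC. Among all 32851 windows of that length, 12.6% hold ACAATG, 18.7% ACAAAG and 18.4% the NF-kB-like pattern. Either ACAATG or ACAAAG was in 3 of the 9 windows, of Bcl2l1 and Bcl2a1d. The share of all windows that hold either was not computed, so 3 of 9 cannot be set against the single shares. The NF-kB-like pattern was in 2 of the 9 windows, 1 of Mcl1 and 1 of Bcl2l1. The 4 stretches below are shown because they hold the Sox letters near the members and the NF-kB-like pattern near Mcl1, with the match in capitals and each read along its gene's strand.
Bcl2l1 (minus strand, chr2:152828490-152828519): gcagaggctgacACAATGagtgctttttct
Bcl2l1 (minus strand, chr2:152831854-152831883): tttctgtagtatACAAAGggacagatggat
Bcl2a1d (minus strand, chr9:88732071-88732100): taaCTTTGTctcctctcaacctggtctata
Mcl1 (plus strand, chr3:95658683-95658712): ccagccctccGGAAACGCCCgcccctttcc
In Bcl2a1d and Mcl1 the letters lie on the strand opposite to the gene. The windows of Bcl2, Bcl2l2, Bcl2a1a and Bcl2a1b held none of the 3. A match describes letters and not a bound site, and the absence of a match says only that these letters are not in these windows.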

How the data were processed

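Total RNA was sequenced from 6 libraries, 3 of pMIR and 3 of pMIR-Sox2, grouped by sample title. The authors deposited raw counts per Ensembl gene; the submitters' processing notes name HTSeq 0.6.1p1, SAMtools 0.1.19, Trimmomatic 0.32, Bowtie2 2.2.2, TopHat2 2.0.11 and build mm9, with no role given. The strand setting and the annotation behind the counts are not given in the sources used here. Lines naming no gene (alignments that were not unique, 23.1 to 26.5% of a library's total, and reads in no feature, 11.4 to 14.6%, among them) stayed out.

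R 4.3.3 and edgeR 4.0.16 were used to test the counts (filterByExpr, TMM, robust quasi-likelihood fit), with Benjamini-Hochberg adjustment over 12899 genes, and the test was tried on simulated data. The SE is the log2 fold change over the square root of F, and 95% intervals use the fit's t quantile. Alternatives were library totals only, DESeq2 size factors, other filters, DESeq2 1.42.0, limma-voom (limma 3.58.1), a replicate block and leaving out each library. Libraries of the same replicate number were read as pairs. Deviations from group means correlated across genes at 0.24, 0.36 and 0.19 between same numbers and at most at 0.03 between others. As deviations were taken within each group, higher values between same numbers lower the others, so the contrast is partly built in.

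Exon lengths came from GENCODE M21 (GRCm38), by identifier, and for Bcl2a1a and Bcl2a1d by symbol. Members and lists were chosen with earlier results of these data known. Every member is described; of each list up to 3 genes with the smallest adjusted p past the threshold are named, and 2 genes of the lists are not reported here. As separate animals are not stated, p-values reflect only how far these libraries differ, which may be technical. Count limits cover counting error only.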

Additional observations from a re-analysis of the deposited data

How the results depend on the processing

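Bcl2, Mcl1, Bcl2l2 and Bcl2a1d kept their direction and their call under all 13 alternatives, with log2 fold changes of −1.25 to −1.13, −0.87 to −0.73, 0.84 to 1.11 and −1.75 to −1.29. Bcl2a1b (−1.57 to −1.10) and the A1 sum (−1.65 to −1.19) kept theirs under 12, and with no filter they stood at −1.23 (adjusted p = 0.0662) and −1.34 (adjusted p = 0.0650). Bcl2l1 kept its direction and was called only without pMIR replicate 2, its values on leaving out 1 library running from −0.80 to −0.20. The replicate block changed no call of a member: Bcl2 was at −1.21, Mcl1 at −0.81, Bcl2l2 at 0.99, the A1 sum at −1.36 and Bcl2l1 at −0.45 (adjusted p = 0.449).

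With the block, 5 genes of the caspase list and 4 of the MCL1 turnover list rose, and the other list counts stayed within 1.5 times. Bax was called lower with the block (−0.27, adjusted p = 0.0237). Calls over all genes went from 5567 to 6800. Leaving out 1 library, the caspase list gave 1 to 5 rises and 2 to 6 falls, the turnover list 1 to 4 rises, the survival inputs 0 to 3 rises and the BCL2 partners 1 to 2 falls. With library totals only the caspase list gave 5 rises and 4 falls and the BCL2 partners 1 fall, as they did with no filter (1 fall). Other BCL2 homologues gave 2 rises with DESeq2 size factors, library totals only or limma-voom. Of 195 values of the 15 list genes that the naming rule selects under the alternatives, 192 kept the call, 3 lost it (all of Fbxw7) and 0 reversed. Per length of the longest transcript, levels in pMIR and pMIR-Sox2 were 12.1 and 5.26 CPM per kb for Bcl2, 47.4 and 33.1 for Bcl2l1, and 7.31 in pMIR for Bcl2l2. The causes of these differences were not tested. Bcl2a1a, at 0 to 14 counts per library, had with no filter a log2 fold change of −1.82 (adjusted p = 0.0796). Whether depth or reads shared with the other copies set its counts was not tested.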

Other observations

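The order of the replicates is given for the A1 sum and for genes of the survival input list. Replicate 2 was the lowest library of both groups in 8 of the 25 tested survival inputs (32.0%) and in 2638 of all 12899 genes tested (20.5%). The A1 sum had this order, with 60.9 CPM in pMIR replicate 2 and 27.3 CPM in pMIR-Sox2 replicate 2. Among genes of the CD40 and NF-kB pathway chosen after their values were seen, Cd40 (65.5 and 25.6 CPM), Nfkb2 (256 and 135 CPM) and Traf1 (141 and 57.2 CPM) had it too. Map3k14 and Traf3 did not, as pMIR replicate 2 was their highest control (55.5 and 61.3 CPM), nor did Nfkb1, whose lowest control was replicate 3 (918 CPM). For Bcl2, Mcl1 and Bcl2l1, pMIR replicate 2 was the lowest control (86.1, 582 and 69.3 CPM). Among the Sox2 libraries the lowest was replicate 1 for Bcl2 and Mcl1 (34.5 and 315 CPM), and replicate 2 was the highest for Bcl2l1 (99.7 CPM). No test was run on these orders, which rest on 3 libraries a group.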
